A study of Rattus norvegicus with 21 samples.

Results

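Genes of fatty acid oxidation and targets of the peroxisome proliferator-activated receptors (PPARs) were followed in RNA from cultured rat pancreatic islets. The 39 genes were chosen by name, for their place in these pathways, and with earlier results of these data known. Shares of members called, given below beside those of all genes, are therefore not independent of these data. All 39 genes were found among the 17025 genes of the count table. They covered the carnitine shuttle, the enzymes of mitochondrial and peroxisomal oxidation, acyl-CoA thioesterases and synthetases, lipid droplet proteins, PPAR targets and the receptors themselves. Of the 39, 38 had enough reads to be tested. Plin5, a lipid droplet protein gene of oxidative tissues, had 3 reads over all 21 libraries and was not tested.

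Islets of Sprague Dawley rats came in 3 preparations, each a pool from 8 animals that was divided over the culture groups. Control islets were held in 11 mM glucose without palmitate, and glucolipotoxic (GLT) islets in 27 mM glucose with 300 µM palmitate, a saturated fatty acid, for 3 h or 24 h. Compound D or compound E was added to GLT at 300 nM, and the labels give no structure for either. Conditions 1, 4, 5 and 6 (3 h control, 24 h GLT, 3 h and 24 h GLT with compound D) had 3 libraries each. Condition 7 (3 h GLT with compound E) had 1, in preparation 2, and condition 8 (24 h GLT with compound E) had 2, in preparations 1 and 2. Conditions 2 and 3 had 3 libraries each, and their names are disputed: the sample records call condition 2 the 24 h control and condition 3 the 3 h GLT group, while the deposited sample sheet gives the opposite. These 6 libraries are therefore named by condition number, and both readings are given.

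Libraries held 22342406 to 40158281 counts in genes, and 3 counts corresponded to 0.0804 to 0.144 CPM (a gene's share of the counts in genes, scaled by TMM to a common depth). Beta cell markers were abundant, with Ins1 at 53600 to 433000 CPM and Slc2a2 at 1430 to 2950 CPM. Ins1 and Ins2 together made up 9.315% to 45.91% of the counts in genes. Summed beta cell markers (7 of 8 found) were at 79200 to 274000 CPM in condition 4 and 85900 to 583000 CPM in condition 6. They were at 424000 to 633000 CPM in condition 8, 217000 to 512000 CPM in condition 2 and 106000 to 567000 CPM in condition 3. Their part in the comparisons was not tested. The adipocyte genes Adipoq, Lep and Plin1 reached at most 0.125, 0.0881 and 0 CPM. Cidec and Fabp4, also on the adipocyte list, ran from 2.07 to 46.1 and from 1.5 to 18.8 CPM. Summed endothelial markers (6 of 6 found) were at 142 to 195 CPM in conditions 1, 2, 5 and 7 and at 22.9 to 94.2 CPM in conditions 3, 4, 6 and 8, and summed red cell markers (3 of 3 found) at 3.10 to 12.4 and 0.188 to 1.06 CPM. Among the undisputed groups these are the 3 h (1, 5 and 7) and the 24 h (4, 6 and 8) conditions: for red cell markers, 3.10 to 12.4 and 0.188 to 1.06 CPM. Condition 2, at 8.06 to 12.3 CPM, lay with the former and condition 3, at 0.430 to 0.571 CPM, with the latter, which is how the sheet names their times; no library was reassigned from these values. Summed stellate cell markers (5 of 5 found) were at 1070 to 1250 CPM in condition 3 and 283 to 747 CPM elsewhere. The condition 3 library of preparation 2 stood apart: 34 genes with a median above 10 CPM had no read in it, against 0 such genes in each of the other 20 libraries, and 23.4% of its reads aligned to more than 1 place (4.92% to 8.51% elsewhere). The condition 8 library of preparation 1 had the lowest TMM factor, 0.682. In 7 libraries more than 1.5% of reads were ambiguous between genes: condition 1 of preparation 1, conditions 2 and 4 of preparation 3, and conditions 5 and 6 of preparations 1 and 3.

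Long-chain fatty acids enter mitochondria as carnitine esters, made by carnitine palmitoyltransferase 1, carried by the translocase Slc25a20 and returned to acyl-CoA by Cpt2. Each turn of beta-oxidation then runs through a dehydrogenase, a hydratase, another dehydrogenase and a thiolase, and electrons leave through the electron transfer flavoprotein. Fatty acids themselves activate PPARs, which raise many of these genes. In beta cells fatty acid oxidation is known to compete with storage in lipid droplets.

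The start regions of 4 members, picked for their different patterns in these data, are shown first. Acot2 responded to compound D at 24 h, and Cpt1a was not called there. Slc25a20 was high in every 24 h GLT library, and Ppargc1a was low in those libraries and in conditions 1 and 3. Each run is 300 bases, 5′ to 3′ on the gene's strand, from 250 bases before the RefSeq start to 50 after it, in build GRCr8 (Acot2 chr6:109342590-109342889, plus strand; Cpt1a chr1:209995910-209996209, plus strand; Slc25a20 chr8:118243323-118243622, plus strand; Ppargc1a chr14:63634058-63634357, plus strand). Capitals mark matches, on either strand, to the PPAR element consensus (2 direct copies of the hexamer AGGTCA with 1 base between them, at most 2 mismatches), to the hexamer itself, or to TGACG, the core of the cyclic AMP response element.
Acot2: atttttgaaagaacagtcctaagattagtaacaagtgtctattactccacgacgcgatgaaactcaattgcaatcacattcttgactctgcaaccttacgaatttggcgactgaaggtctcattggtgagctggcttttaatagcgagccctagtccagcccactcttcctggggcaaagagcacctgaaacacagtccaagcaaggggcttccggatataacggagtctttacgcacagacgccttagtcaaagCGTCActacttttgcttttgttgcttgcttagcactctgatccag
Cpt1a: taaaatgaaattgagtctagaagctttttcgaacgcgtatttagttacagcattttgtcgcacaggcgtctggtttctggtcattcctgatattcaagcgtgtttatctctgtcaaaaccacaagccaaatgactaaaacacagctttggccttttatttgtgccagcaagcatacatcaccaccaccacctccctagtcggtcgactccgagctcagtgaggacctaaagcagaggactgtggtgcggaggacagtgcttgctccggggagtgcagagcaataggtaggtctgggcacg
Slc25a20: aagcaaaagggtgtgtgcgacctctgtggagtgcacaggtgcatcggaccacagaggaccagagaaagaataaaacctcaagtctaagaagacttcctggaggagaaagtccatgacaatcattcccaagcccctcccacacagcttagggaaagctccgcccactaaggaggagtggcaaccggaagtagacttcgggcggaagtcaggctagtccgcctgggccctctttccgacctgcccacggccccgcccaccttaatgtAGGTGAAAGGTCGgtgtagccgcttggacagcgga
Ppargc1a: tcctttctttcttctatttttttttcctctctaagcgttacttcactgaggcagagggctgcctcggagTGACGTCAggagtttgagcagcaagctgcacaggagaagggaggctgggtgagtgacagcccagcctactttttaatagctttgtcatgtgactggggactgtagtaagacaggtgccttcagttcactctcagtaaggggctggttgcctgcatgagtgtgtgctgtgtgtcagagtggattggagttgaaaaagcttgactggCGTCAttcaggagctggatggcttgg
The Slc25a20 run held a match to the PPAR element consensus 16 bases after the start, AGGTGAAAGGTCG. Acot2 and Cpt1a held none in this window. Such a match occurred in 3.77% of all 33469 windows and in 4 of the 35 windows found for 34 members (Slc25a20, Acadvl, Echs1 and Etfa). Of these, Acadvl, Echs1 and Etfa passed in no comparison. The hexamer AGGTCA, which can lie within a PPAR element match, was in 16.2% of all windows and in 7 of the members' windows. Ppargc1a held the full palindrome TGACGTCA 181 bases before its start, which 1.83% of all windows hold, and Acadm was the other member with it. TGACG, which the palindrome contains on both strands, was in 21.2% of all windows and in 8 of the members' windows, Acot2 among them. These are letter matches in a short window and say nothing of binding.

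At 24 h, compound D lowered Acot2, which encodes a mitochondrial acyl-CoA thioesterase that splits fatty acyl-CoA into free acid and CoA, and no difference from GLT alone was detected with compound E. Under 24 h GLT, Acot2 (gene 192272) was at 54.2, 40.1 and 48.7 CPM in preparations 1, 2 and 3, the order kept below. With compound D it was at 10.6, 14.8 and 11.0 CPM, and with compound E at 54.4 and 39.7 CPM in preparations 1 and 2. The 3 compound D libraries all lay below the other 5. The fitted difference for compound D was -2.0 on the log2 scale (SE 0.22), a fall to 0.251 of the GLT level, with an adjusted p = 2.20e-04 by edgeR's quasi-likelihood test with Benjamini-Hochberg adjustment (n = 3 against 3). For compound E it was -0.14 (SE 0.24, 95% interval -0.65 to 0.37, adjusted p = 0.792 in edgeR, n = 2 against 3). The direct comparison of the compounds gave a level 3.62 times higher with compound E (1.86, SE 0.24, adjusted p = 0.00143 in edgeR). Acot2 was the 1 member of 38 that passed there, 2.63% against 3.01% of all genes tested.

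**Figure D1:**
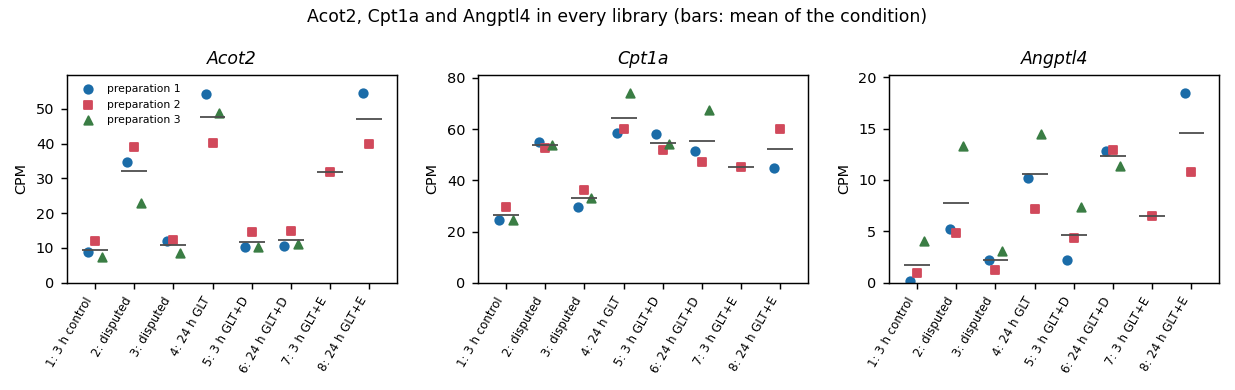
Level of Acot2, Cpt1a and Angptl4 (CPM, vertical axis from 0) in each of the 21 libraries by condition, with the preparation as marker and the mean of each condition as a bar. Acot2 sat at 22.9 to 54.4 CPM in conditions 2, 4, 7 and 8 and at 7.37 to 14.8 CPM in conditions 1, 3, 5 and 6, and Cpt1a at 24.5 to 36.3 CPM in conditions 1 and 3 and at 44.6 to 73.9 CPM in the rest.

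Over all conditions the Acot2 libraries fell into separate ranges. In 3 h control it was at 8.83, 12.0 and 7.37 CPM, in condition 3 at 12.0, 12.3 and 8.51 CPM, and in 3 h GLT with compound D at 10.3, 14.6 and 10.3 CPM. Condition 2 was at 34.6, 39.1 and 22.9 CPM and the single 3 h library with GLT and compound E at 31.9 CPM. The 12 libraries of conditions 1, 3, 5 and 6 ran from 7.37 to 14.8 CPM and the 9 libraries of conditions 2, 4, 7 and 8 from 22.9 to 54.4 CPM, with no overlap. In the sheet's naming the high set is GLT without compound D, at both times, and the low set is control or GLT with compound D. In the records' naming the high set includes the 24 h control and the low set includes 3 h GLT. The difference of condition 5 from condition 2, which is the compound D effect at 3 h by the sheet, was -1.44 for Acot2 (SE 0.21, adjusted p = 0.00526 in edgeR). That from condition 3, which is the compound D effect at 3 h by the records, was 0.11 (SE 0.21, adjusted p = 0.807 in edgeR). Acot2 was the 1 member called between conditions 5 and 2, 2.63% against 0.493% of all genes, and was not called there without preparation 1, without preparation 3 or with library size scaling only.

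Acot1, which encodes the cytosolic counterpart, had 99 reads in all and at most 0.518 CPM. Acot1 and Acot2 are close paralogs, so reads shared between them could have been dropped or split, and both levels are uncertain to that extent. Without preparation 1 the Acot2 difference for compound D was -1.83 (adjusted p = 0.0821 in edgeR) and that between the compounds 1.41 (adjusted p = 0.307 in edgeR). The latter fit, and that without the condition 8 library of preparation 1, leave 1 compound E library and assume that it varies like the other groups. With only the groups compared in the fit, the difference between the compounds was 1.89 (adjusted p = 1 in edgeR), and without that condition 8 library it was 1.5 (adjusted p = 0.0291 in edgeR).

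Of the other 37 tested members, Acadm was the only one called with compound D at 24 h and none was called with compound E. Acadm, the medium-chain acyl-CoA dehydrogenase gene, went from 19.5, 24.1 and 22.5 CPM to 32.2, 38.2 and 28.2 CPM with compound D (0.57, SE 0.14, adjusted p = 0.0371 in edgeR). The groups did not overlap, and the compound E libraries were at 23.3 and 23.0 CPM. With Acot2 this made 2 of 38 members called, 5.26% against 4.08% of all genes, and the median over the 38 members was 0.06, against 0.01 over all genes. Cpt1a differed by -0.21 with compound D (95% interval -0.54 to 0.11) and by -0.26 with compound E (-0.64 to 0.12). Plin2 differed by 0.16 (-0.23 to 0.56) and 0.04 (-0.41 to 0.49). Compound E called 0 of 38 members in edgeR, against 0% of all genes, with 2 at an unadjusted p under 0.05 and 0 in DESeq2. Without preparations 1, 2 and 3 in turn, compound D called 0, 1 and 1 members, and a term for libraries above 1.5% ambiguous reads ended the call of Acadm. Without preparation 2, 1 compound E library was left, and the counts for compound E rose. These counts enter only the ranges given in the closing section on processing. They are not read as compound E effects, because that fit assumes that 1 library varies like the other groups.

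**Figure D2:**
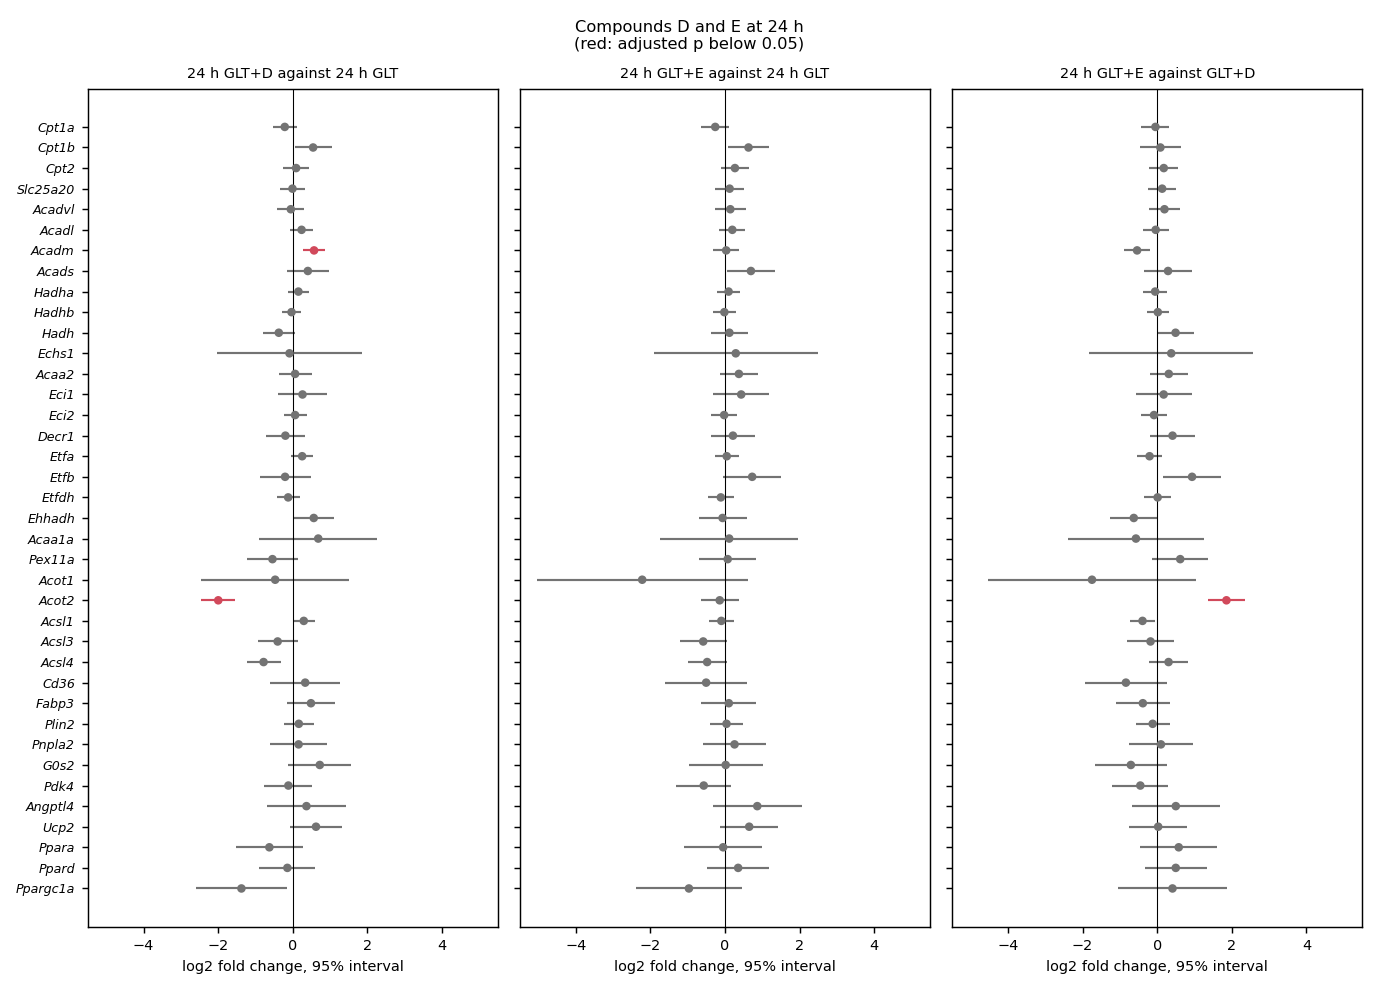
Fitted log2 fold change of each of the 38 tested members (points) with its 95% interval (lines) for compound D against 24 h GLT, compound E against 24 h GLT and compound E against compound D. Members in red passed at an adjusted p below 0.05 in edgeR: Acot2 and Acadm with compound D, none with compound E, and Acot2 between the compounds.

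Cpt1a, which encodes the carnitine palmitoyltransferase isoform of islets and liver, was already high at 3 h with compound D present. In 3 h control it was at 24.6, 29.6 and 24.5 CPM, and in 3 h GLT with compound D at 58.0, 52 and 54.1 CPM, with no overlap. This difference, which uses no disputed library, was 2.09-fold (1.06, SE 0.16, adjusted p = 0.0121 in edgeR). Cpt1a was the 1 member of 38 called there, 2.63% against 0.103% of all genes. It was not called without preparation 1, without preparation 3, with library size scaling only, or with only the 2 groups in the fit. Condition 2 had 54.9, 52.7 and 53.8 CPM and condition 3 had 29.5, 36.3 and 33.2 CPM. Over all libraries the 6 of conditions 1 and 3 ran from 24.5 to 36.3 CPM, and the other 15 from 44.6 to 73.9 CPM. At 24 h Cpt1a with compound D (51.6, 47.0 and 67.5 CPM) overlapped GLT alone (58.5, 60.2 and 73.9 CPM), where Acot2 did not. The muscle isoform gene Cpt1b ran from 2.66 to 7.68 CPM and passed in no comparison.

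Between conditions 1 and 2, 3 members rose: by the sheet this pair is 3 h GLT against 3 h control, and by the records it is 24 h against 3 h of control culture. Acot2 rose 3.41-fold (1.77, SE 0.22, adjusted p = 4.42e-04 in edgeR) and Cpt1a 2.05-fold (1.04, SE 0.16, adjusted p = 0.00209 in edgeR). Angptl4, which encodes a secreted inhibitor of lipoprotein lipase and is a PPAR target, went from 0.188, 0.950 and 4.02 CPM in condition 1 to 5.24, 4.83 and 13.3 CPM in condition 2 (2.36, SE 0.55, adjusted p = 0.0355 in edgeR). The preparations differed widely for Angptl4, but it was higher in condition 2 within each of them. The 3 were 7.89% of the members tested, against 2.31% of all genes, and all were higher (1.96% of all genes). Without preparations 1, 2 and 3 in turn the count was 0, 3 and 1, and Angptl4 was called in none of these fits.

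The corresponding pair of conditions 3 and 1 called 0 of 38 members in edgeR (9 at an unadjusted p under 0.05, 0 in DESeq2), against 0.692% of all genes. Cpt1a differed by 0.33 (95% interval 0.00 to 0.66), Acot2 by 0.22 (-0.23 to 0.67) and Angptl4 by 0.61 (-0.58 to 1.80). The change of the GLT effect from 3 h to 24 h, the same contrast in both readings, also called 0 of 38 in edgeR (2 at an unadjusted p under 0.05, 0 in DESeq2), against 0.0716% of all genes.

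From 3 h to 24 h of GLT with compound D a further set rose: the carnitine translocase, enzymes of the mitochondrial cycle and lipid droplet genes. This comparison uses no disputed library. There 8 of 38 members passed, 21.1% against 6.11% of all genes, with 6 higher (3.07% of all genes) and 2 lower (3.05%). The median over the members was 0.20 on the log2 scale and over all genes 0.02. Slc25a20, which exchanges acylcarnitine for carnitine across the inner membrane, went from 59.0, 82.8 and 55.6 CPM to 95.6, 119 and 104 CPM (0.71, SE 0.16, adjusted p = 0.0183 in edgeR). Acadl, the long-chain acyl-CoA dehydrogenase gene, went from 20.8, 27.9 and 21.8 CPM to 41.1, 46.2 and 43.4 CPM (0.89, SE 0.15, adjusted p = 0.00304 in edgeR). Neither gene's groups overlapped. Hadhb, which encodes the thiolase subunit of the trifunctional protein, went from 114, 136 and 116 to 170, 172 and 171 CPM (0.49, SE 0.13, adjusted p = 0.0315 in edgeR), again without overlap. Acaa2, another thiolase gene, went from 18.1, 33.7 and 18.3 to 31.9, 60.8 and 33.1 CPM (0.84, SE 0.21, adjusted p = 0.0289 in edgeR). Its groups overlapped, with preparation 2 high at both times, but it was higher at 24 h within every preparation. All 5 genes of the later steps had positive values, and so did all 4 acyl-CoA dehydrogenases, of which 2 and 1 passed. Positive values were found in 29 of 38 members and in 6448 of 12576 genes tested. They were found in 0 of 3 acyl-CoA synthetases, 0 of 3 receptor and coactivator genes and 1 of 3 peroxisome genes.

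Lipid droplet genes were in the same set. Plin2, which encodes a droplet coat protein of non-adipose cells, went from 67.8, 83.0 and 45.2 CPM to 94.0, 113 and 106 CPM without overlap (0.72, SE 0.19, adjusted p = 0.0342 in edgeR). G0s2, which encodes an inhibitor of the triglyceride lipase Pnpla2, went from 6.54, 8.77 and 1.57 CPM to 18.7, 32.7 and 11.4 CPM (1.99, SE 0.41, adjusted p = 0.012 in edgeR). The highest 3 h library for G0s2 lay below the lowest 24 h library, though the preparations were wide apart. Pnpla2 itself was at 25.4 to 30.5 CPM and at 25.8 to 35.3 CPM (0.09, SE 0.35).

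At both times the libraries above the split by ambiguous reads were those of preparations 1 and 3. Endothelial markers were at 142 to 175 CPM at 3 h and 22.9 to 90.4 CPM at 24 h, red cell markers at 3.10 to 12.4 and 0.563 to 1.04 CPM, and their part in these values was not tested. In bulk RNA, fewer cells of a type and less RNA per cell cannot be told apart. The count of members called was 0, 9 and 1 without preparations 1, 2 and 3 in turn, 3 with library size scaling only (2 higher, 1 lower) and 4 without the preparation as a block (2 higher, 2 lower).

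**Figure D3:**
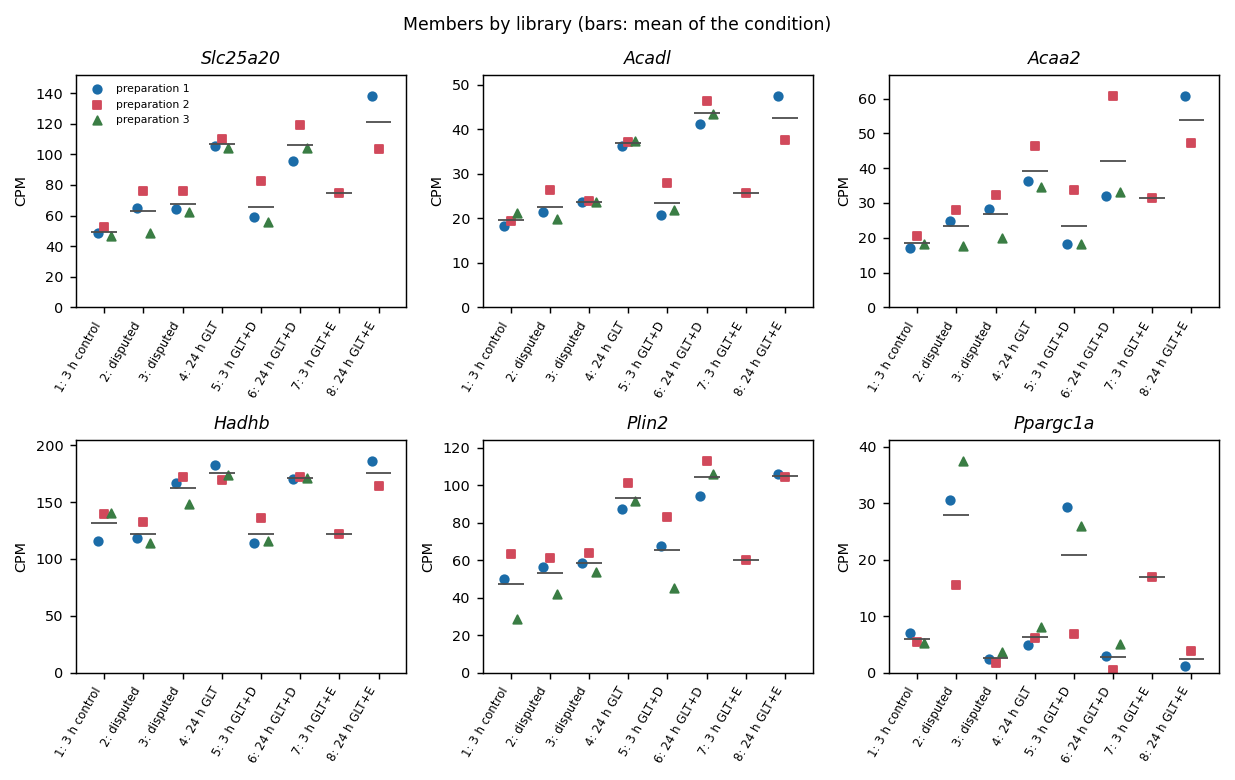
Level of 6 members (CPM, vertical axes from 0) in each library by condition, with preparations as markers and condition means as bars. Slc25a20, Acadl and Plin2 in the 8 libraries of 24 h GLT with or without a compound (conditions 4, 6 and 8) lay above all 13 others, and Ppargc1a was at 0.432 to 8.07 CPM in those 8.

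Slc25a20, Acadl and Plin2 were high in every library with 24 h of GLT, whether or not a compound was present. Slc25a20 ran from 95.6 to 138 CPM in the 8 libraries of conditions 4, 6 and 8, and from 46.4 to 82.8 CPM in the other 13. Acadl ran from 36.3 to 47.5 CPM in the 8 and from 18.3 to 27.9 CPM in the 13. Plin2 ran from 87.3 to 113 CPM and from 28.9 to 83.0 CPM. These 3 genes separated the 24 h GLT libraries from both disputed conditions, whichever names those carry. The share of all genes that split the libraries likewise was not counted, here or for Acot2 and Cpt1a. Hadhb (164 to 186 against 114 to 172 CPM) and Acaa2 (31.9 to 60.8 against 17.0 to 33.7 CPM) overlapped, and Hadhb in condition 3 was at 167, 172 and 148 CPM. G0s2 overlapped too, at 11.4, 12.6 and 10.2 CPM in condition 4 and 10.5, 9.62 and 3.42 CPM in condition 2, and was called against neither condition 2 (0.71, SE 0.40, adjusted p = 0.322 in edgeR) nor condition 3 (0.44, SE 0.40, adjusted p = 0.579 in edgeR).

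Condition 4 was compared with each disputed condition, so that 24 h GLT was set against both 24 h control and 3 h GLT in either reading. Against condition 2, 9 of 38 members passed, 23.7% against 8.52% of all genes, with 7 higher (3.63% of all genes) and 2 lower (4.89%). Against condition 3, 8 passed, 21.1% against 5.97%, with 7 higher (3.31%) and 1 lower (2.66%). The comparisons share the condition 4 libraries. Slc25a20 (0.77, SE 0.16 and 0.67, SE 0.16), Acadl (0.72, SE 0.15 and 0.64, SE 0.15) and Plin2 (0.84, SE 0.19 and 0.68, SE 0.19) were higher in both, so that they were higher in 24 h GLT than in the 24 h control in either reading. Their adjusted p values in edgeR were 0.00982, 0.00936 and 0.0147 against condition 2, and 0.0254, 0.0206 and 0.0461 against condition 3. Without the condition 3 library of preparation 2 the values against condition 3 were 0.69, 0.61 and 0.62, and none of the 3 passed (adjusted p = 0.0763, 0.0882 and 0.155 in edgeR).

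Other members passed against only 1 of the 2, so that their call as a GLT effect at 24 h depends on the names. Against condition 2 the hydroxyacyl-CoA dehydrogenase gene Hadh rose from 801, 941 and 665 CPM to 1515, 1494 and 1074 CPM (0.76, SE 0.20, adjusted p = 0.0327 in edgeR). Hadhb rose too (0.53, SE 0.13, adjusted p = 0.0197 in edgeR), as did Acaa2 (0.75, SE 0.21, adjusted p = 0.0404 in edgeR). Pex11a, which encodes a peroxisome division protein and is a PPAR target, rose from 0.829, 1.12 and 1.24 CPM to 2.19, 2.94 and 4.94 CPM without overlap. It was 3.08 times higher than in condition 2 (1.62, SE 0.33, adjusted p = 0.00929 in edgeR), and its difference from condition 3 did not pass (0.99, SE 0.32, adjusted p = 0.0812 in edgeR).

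Against condition 3 the 3 widest of the called differences were those of Angptl4, from 2.23, 1.23 and 3.13 to 10.2, 7.18 and 14.4 CPM (2.31, SE 0.54, adjusted p = 0.0235 in edgeR), Acot2, 4.46-fold (2.16, SE 0.22, adjusted p = 1.31e-04 in edgeR), and Cpt1a, 1.94-fold (0.96, SE 0.16, adjusted p = 0.00345 in edgeR). Against condition 2 they differed by 0.56, SE 0.51, by 0.61, SE 0.21 and by 0.25, SE 0.15, and did not pass. Ehhadh, the peroxisomal bifunctional enzyme gene, was lower in condition 4 (1.85, 1.70 and 1.74 CPM) than in condition 3 (3.17, 3.25 and 3.66 CPM), with a difference of -0.92, SE 0.26 and an adjusted p = 0.0497 in edgeR. Against condition 2 its difference did not pass (-0.76, SE 0.26, adjusted p = 0.0868 in edgeR). The calls of Ehhadh and Plin2 against condition 3 were each lost under 8 of the 11 alternative settings, and that of Acot2 under 0.

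**Figure D4:**
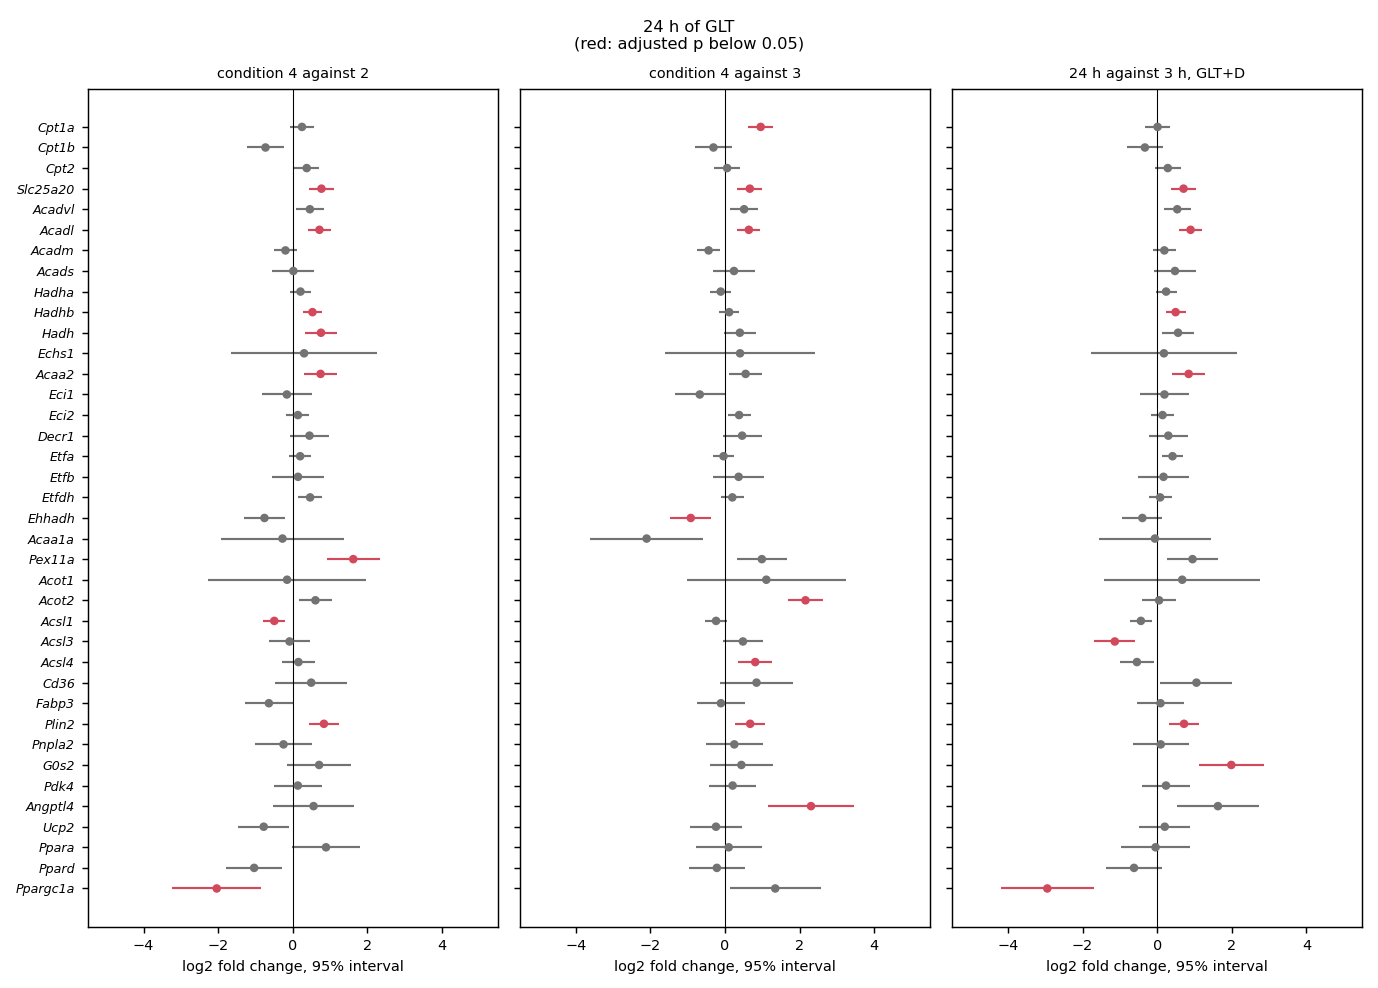
Fitted log2 fold change with its 95% interval for each of the 38 tested members: condition 4 (24 h GLT) against condition 2, condition 4 against condition 3, and 24 h against 3 h of GLT with compound D. Members in red passed in edgeR; Slc25a20, Acadl and Plin2 did so to the right in all 3 panels, and Ppargc1a to the left in the first and the third.

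The counts depended on the preparations. Against condition 2, 0, 12 and 0 members passed without preparations 1, 2 and 3 in turn. Against condition 3 it was 1, 5 and 1, with Acot2 called in each fit, and 3 without the condition 3 library of preparation 2. With library size scaling only, 8 passed against condition 2, all higher, and 2 against condition 3, both higher. Endothelial markers were at 30.2 to 78.3 CPM in condition 4, 170 to 195 CPM in condition 2 and 63.0 to 94.2 CPM in condition 3, stellate cell markers at 406 to 730, 325 to 394 and 1070 to 1250 CPM, and red cell markers at 0.188 to 0.391, 8.06 to 12.3 and 0.430 to 0.571 CPM. Their part in these values was not tested.

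Acyl-CoA synthetases, which activate fatty acids for both oxidation and lipid synthesis, were called in both directions, in different pairs of conditions. The calls given next were lost under 3 (Acsl3), 5 (Acsl1) and 5 (Acsl4) of the 11 alternative settings. Those of Acsl1 and Acsl4 use conditions 2 and 3, whose names are disputed. Acsl3, a synthetase of the endoplasmic reticulum and lipid droplets, was at 114, 65.5 and 83.1 CPM in 3 h GLT with compound D and at 37.9, 32.4 and 48.8 CPM at 24 h (-1.14, SE 0.26, adjusted p = 0.0185 in edgeR). Acsl1, a long-chain synthetase and PPAR target, was lower in condition 4 (45.0, 48.8 and 35.6 CPM) than in condition 2 (63.1, 54.8 and 63.8 CPM), with a difference of -0.49, SE 0.14 and an adjusted p = 0.0406 in edgeR. Acsl4, which prefers arachidonic acid, was at 176, 135 and 160 CPM in condition 4 and 84.8, 98.8 and 82.0 CPM in condition 3 (0.81, SE 0.21, adjusted p = 0.0388 in edgeR). With compound D at 24 h Acsl4 was at 94.0, 66.8 and 116 CPM, below all 3 GLT libraries, but the difference did not pass (-0.78, SE 0.21, adjusted p = 0.0539 in edgeR).

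Ppargc1a, which encodes PGC-1 alpha, a coactivator that works with PPARs on mitochondrial genes, ranged over 0.432 to 37.5 CPM. It was at 29.4, 6.90 and 26.0 CPM in 3 h GLT with compound D and at 2.88, 0.432 and 5.09 CPM at 24 h (-2.95, SE 0.59, adjusted p = 0.00946 in edgeR), a fall to 0.130 of the 3 h level in the comparison where Slc25a20 and Acadl rose. Condition 2 was also high, at 30.5, 15.5 and 37.5 CPM, as was the 3 h library with compound E at 17.0 CPM. Condition 4 was at 4.86, 6.10 and 8.07 CPM, below condition 2 (-2.04, SE 0.56, adjusted p = 0.037 in edgeR), and 3 h control was at 7.03, 5.45 and 5.25 CPM. Within condition 5 the library of preparation 2 was low, and the other 2 are above the split by ambiguous reads.

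Between conditions 5 and 3, 4 members passed, all higher in condition 5: Cpt1a (0.74, SE 0.16), Acsl1 (0.50, SE 0.14), Acsl3 (1.21, SE 0.26) and Ppargc1a (2.92, SE 0.59), with adjusted p values of 0.0128, 0.0444, 0.0128 and 0.011 in edgeR. They were 10.5% of the members, against 6.93% of all genes (3.99% higher). This pair is the compound D effect at 3 h by the records, and it differs in time, GLT and compound by the sheet. No member passed with a term for ambiguous reads, without preparation 1, without preparation 3, or with only the 2 groups in the fit, and 7 passed without preparation 2. Stellate cell markers were at 284 to 382 CPM in condition 5 and 1070 to 1250 CPM in condition 3, endothelial markers at 142 to 175 and 63.0 to 94.2 CPM, and red cell markers at 3.10 to 12.4 and 0.430 to 0.571 CPM. Their part in these values was not tested. The receptor genes Ppara (0.336 to 1.74 CPM) and Ppard (5.44 to 27.7 CPM) passed in no comparison.

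**Figure D5:**
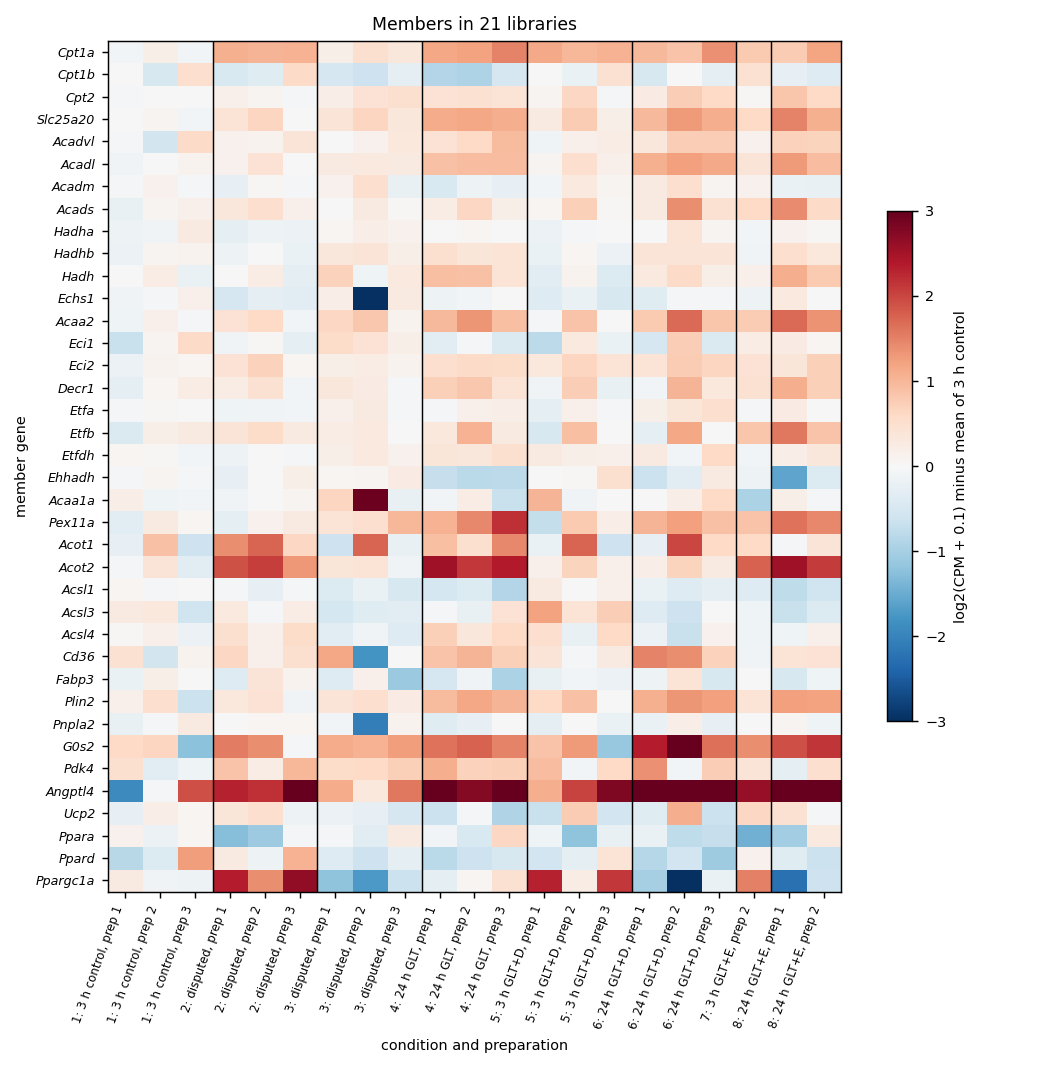
Level of the 38 tested members in the 21 libraries, as log2(CPM + 0.1) minus the mean of the 3 h control libraries, with colours limited at -3 and 3 and columns grouped by condition. Acot2 is high in conditions 2, 4, 7 and 8, Cpt1a in all but conditions 1 and 3, and Echs1 stands out in condition 3 of preparation 2, where it had 0 reads.

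In all, 17 of the 38 tested members passed in at least 1 of the 12 comparisons and 21 in none. The share of all genes that passed at least once was not counted, so no excess is read from this. Among those with no call, Hadha, the other trifunctional protein subunit gene, ran from 121 to 192 CPM, Etfa, an electron transfer flavoprotein gene, from 60.6 to 104 CPM, and Etfdh, the gene of its oxidoreductase, from 45.7 to 76.9 CPM. Cpt2 ran from 53.5 to 97.9 CPM, the very long-chain dehydrogenase gene Acadvl from 30.5 to 86.5 CPM, and the short-chain dehydrogenase gene Acads from 9.23 to 29.1 CPM. Of the auxiliary genes for unsaturated fatty acids, Eci1 ran from 10.1 to 29.2, Eci2 from 11.4 to 22 and Decr1 from 23.8 to 62.2 CPM.

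Ucp2 and Etfb differed widely between preparations. Ucp2, which encodes a mitochondrial carrier that beta cells are known to express, was at 78.6, 212 and 83.8 CPM in 3 h GLT with compound D and at 96.4, 264 and 79.4 CPM at 24 h. Etfb, the other electron transfer flavoprotein gene, was at 31.5, 82.9 and 44.3 CPM and at 36.6, 99.1 and 44.3 CPM in the same libraries. In both genes the high library was that of preparation 2, the one under the split by ambiguous reads. Those preparation 2 libraries differed in other ways too. Ins1 and Ins2 made up 28.7% and 43.3% of their counts in genes, against 10% to 17.0% in preparations 1 and 3. The ribosomal RNA gene Rn45s made up 1.37% and 1.56%, against 5.64% to 7.88%. The part of these traits in the values was not tested. Over the series Ucp2 had a median of 83.8 CPM in the 7 libraries above the split and 136 CPM in the 14 below, and Etfb 44.3 and 61.4 CPM. Pdk4 encodes a kinase that blocks pyruvate dehydrogenase and is a PPAR target. It was at 25.6, 14.5 and 16.6 CPM in 3 h control and at 39.1, 29.9 and 30.3 CPM in 24 h GLT. These groups differ in both time and GLT and were not compared with each other. Pdk4 passed in none of the comparisons made.

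Members with few reads were Cd36, a fatty acid receptor gene that endothelial cells and macrophages also express (0.361 to 4.36 CPM), Fabp3, a fatty acid binding protein gene (0.432 to 1.43 CPM), and Acaa1a, a peroxisomal thiolase gene (0.101 to 0.677 CPM outside 1 library). In the condition 3 library of preparation 2, Acaa1a was at 2.88 CPM, Pnpla2 at 7.12 CPM against 23.6 to 36.9 CPM elsewhere, and the enoyl-CoA hydratase gene Echs1 had 0 reads against 35.5 to 62.0 CPM elsewhere. That library also held the lowest Cd36 value, 0.361 CPM.

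Beyond the members, 74 further genes of the same pathways were listed, of which 71 were found and 60 tested. In 24 h against 3 h of GLT with compound D, 5 of the 60 rose and 0 fell, 8.33% against 6.11% of all genes (3.07% higher, 3.05% lower), and the median was 0.07. By list, 2 of 13 genes of mitochondrial oxidation rose, 1 of 12 of the peroxisome and 1 of 4 other PPAR targets. No gene was called among 9 of activation and uptake, 8 of lipid droplets and 10 receptors and coregulators (2, 1 and 2 at an unadjusted p under 0.05 in edgeR).

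The peroxisomal genes among them moved in both directions. Cat, the catalase gene, rose from 3 h to 24 h of GLT with compound D (1.19, SE 0.25, adjusted p = 0.0135 in edgeR) and was higher in condition 4 than in condition 2 (1.14, SE 0.25, adjusted p = 0.0143 in edgeR). Abcd2, a peroxisomal fatty acid transporter gene, was lower in condition 4 than in condition 2 (-1.42, SE 0.36, adjusted p = 0.0252 in edgeR) and condition 3 (-1.44, SE 0.36, adjusted p = 0.0297 in edgeR), and was raised by compound D at 24 h (1.89, SE 0.35, adjusted p = 0.00848 in edgeR). Abcd2 was the 1 of 60 called with compound D at 24 h, 1.67% against 4.08% of all genes. Between the compounds it was lower with compound E (-1.85, SE 0.41, adjusted p = 0.0233 in edgeR), as was the synthetase gene Acsl6 (-0.66, SE 0.16, adjusted p = 0.0439 in edgeR), and these 2 were 3.33% against 3.01% of all genes. Abcd2 was low throughout, with means of 0.616 CPM (SD 0.325) in 24 h GLT, 2.26 CPM (SD 1.13) with compound D and 0.743 CPM (SD 0.0364, n = 2) with compound E.

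Crat, the carnitine acetyltransferase gene (0.58, SE 0.15), Acad10 (0.92, SE 0.26) and the hormone gene Fgf21 (2.30, SE 0.64) rose from 3 h to 24 h of GLT with compound D, with adjusted p values of 0.0305, 0.0476 and 0.0453 in edgeR. Dgat2, which encodes an enzyme of triglyceride synthesis, was the 1 of 60 called between conditions 2 and 1, higher in condition 2 (1.14, SE 0.28, adjusted p = 0.0422 in edgeR), 1.67% against 2.31% of all genes. It was also higher in condition 4 than in condition 3 (1.18, SE 0.28, adjusted p = 0.0257 in edgeR) and in condition 5 than in condition 3 (1.69, SE 0.28, adjusted p = 0.00419 in edgeR). Against condition 2, condition 4 had 4 of 60 higher, Vnn1 (0.61, SE 0.16) among them, and 1 lower, 8.33% against 8.52% of all genes. Against condition 3 it had 3 higher, Bdh1 (0.62, SE 0.17) among them, and 2 lower, with the kinase gene Pdk2 (-1.08, SE 0.27), 8.33% against 5.97% of all genes. Between conditions 5 and 3, 3 of 60 were higher, Pparg (2.01, SE 0.44) and Lpin1 (1.47, SE 0.35) with Dgat2, and 2 were lower, Acad10 (-0.98, SE 0.26) and Decr2 (-0.90, SE 0.26). Those 5 were 8.33% against 6.93% of all genes. In edgeR 0 of the 60 passed with compound E against 24 h GLT (2 at an unadjusted p under 0.05), in 3 h GLT with compound D against 3 h control (4), between conditions 3 and 1 (10), between conditions 5 and 2 (6) and for the change of the GLT effect (5).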

How the data were processed

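Islet RNA of 21 libraries was sequenced, and the authors deposited a table of raw read counts per gene. Per the labels' protocols, paired reads were aligned to the rat genome (rn5) with Bowtie2 2.0.0 and TopHat2 2.0.3 and counted per gene with HT-seq; the gene annotation and whether counting used strand are not given in the sources used here. 5 entries that name no gene were left out: among them, reads in no gene made up 10.3% to 18.7% of a library, reads aligned to several places 4.92% to 23.4%, and ambiguous reads 0.161% to 2.32%. Counts were fitted in edgeR 4.0.16 (R 4.3.3), with TMM scaling, filterByExpr (12576 of 17025 genes kept), a term for each condition, the preparation as a block and quasi-likelihood tests, adjusted by Benjamini-Hochberg over all genes tested (threshold 0.05). The SE was the size of the log2 fold change divided by the square root of F. Members that passed at least once were given with the CPM of single libraries and full statistics, and the others mostly by their range; further genes were named by smallest adjusted p, up to 3 per list that passed, some of which are not reported here. The members and lists were chosen with earlier results of these data known.

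The preparation pairs the libraries by design, since each pool of islets was divided over the conditions; residuals correlated at 0.205 on average within a preparation (0.0698, 0.183 and 0.425) and at -0.158 between preparations. P-values rest on the spread left after the terms for condition and preparation are fitted, and cover these preparations only. Alternatives were DESeq2 1.42.0, library size scaling, no filter, no block, only the groups compared and each preparation left out. Added after the data were seen were a term for ambiguous reads and the loss of 2 single libraries. The fit was also run on counts simulated from its own model, which cannot show how it handles single odd libraries. The outcome is not reported here. Promoter windows came from RefSeq and were searched on both strands.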

Additional observations from a re-analysis of the deposited data

Results flagged for a closer look

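The difference between the compounds in their effect on Acot2 at 24 h was tested directly: the compound E effect minus the compound D effect was 1.86 on the log2 scale (SE 0.24, adjusted p = 0.00143 in edgeR), and both compound E libraries lay above all 3 compound D libraries. The single library of 3 h GLT with compound E, which entered no comparison, had Acot2 at 31.9 CPM and Ppargc1a at 17.0 CPM, each at least 2 times the highest 3 h control library (12.0 and 7.03 CPM). With 1 library these values have no replicate check.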

How the results depend on the processing

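The main counts of members called were 2 for compound D against 24 h GLT, 0 for compound E against 24 h GLT, 1 for compound E against compound D, 1 for 3 h GLT with compound D against 3 h control, 8 for 24 h against 3 h of GLT with compound D, 9 for condition 4 against 2, 8 for condition 4 against 3, 3 for condition 2 against 1, 0 for condition 3 against 1, 4 for condition 5 against 3, 1 for condition 5 against 2 and 0 for the change of the GLT effect. Without each preparation in turn (where 1 compound E library was left, it was assumed to vary like the other groups) they ranged over 0 to 1 for compound D against 24 h GLT, 0 to 6 for compound E against 24 h GLT, 0 to 12 for compound E against compound D, 0 to 2 for 3 h GLT with compound D against 3 h control, 0 to 9 for 24 h against 3 h of GLT with compound D, 0 to 12 for condition 4 against 2, 1 to 5 for condition 4 against 3, 0 to 3 for condition 2 against 1, 0 to 7 for condition 5 against 3 and 0 to 1 for condition 5 against 2. Scaling by library size only gave 1 for compound D against 24 h GLT, 2 for compound E against compound D, 0 for 3 h GLT with compound D against 3 h control, 3 for 24 h against 3 h of GLT with compound D, 2 for condition 4 against 3, 1 for condition 2 against 1, 2 for condition 5 against 3 and 0 for condition 5 against 2, and moved the median of all genes to 0.24 for condition 4 against 2, -0.36 for compound E against 24 h GLT and 0.38 for the change of the GLT effect. The fit with no replicate block gave 1 for compound D against 24 h GLT, 4 for 24 h against 3 h of GLT with compound D, 4 for condition 4 against 2 and 3 for condition 4 against 3, and the preparation block, which follows the pairing of the design, was kept in the main fit. With only the groups compared the counts were 1 for compound D against 24 h GLT, 0 for compound E against compound D, 0 for 3 h GLT with compound D against 3 h control, 14 for 24 h against 3 h of GLT with compound D, 19 for condition 4 against 2, 5 for condition 2 against 1, 0 for condition 5 against 3 and 2 for condition 5 against 2. DESeq2 gave 2 for compound E against compound D and 14 for condition 4 against 2. Chosen after seeing the data, leaving out the condition 3 library of preparation 2 gave 3 for condition 4 against 3, and a term for libraries above 1.5% ambiguous reads gave 0 for condition 5 against 3. The cause of these differences was not tested, and the shares of all genes called in these alternative fits are not reported here. No count moved by over 1.5 times without the low-count filter or without the condition 8 library of preparation 1, and no called member changed sign in any of these settings. Of the 37 calls of a member in a comparison, 36, 5 and 32 were lost without preparations 1, 2 and 3, 20 with library size only, 17 without the block and 0 in DESeq2. Acot1, Acaa1a and Ppara had 99, 274 and 540 reads over all libraries, so that small differences in them were not detectable at this depth.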
